A study of Mus musculus with 8 samples.

Results

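The 9 genes described here encode histone variants that lie outside the replication-dependent histone clusters: H3f3a and H3f3b (H3.3), H2afz and H2afv (H2A.Z), H2afx (H2AX), H2afy and H2afy2 (macroH2A), H1f0 (the linker histone H1.0) and Cenpa (the centromeric H3 variant). They were chosen by symbol, not by a measured value, although earlier results of these data were known at the time. All 9 were found among the 22744 genes of the deposited expression table, and all 9 were among the 16634 genes tested. RNA was sequenced from whole testis at postnatal day 8 (P8) of C57BL/6 mice, from 3 wild-type and 3 Dmrt6 null libraries. DMRT6 is the DNA-binding protein that the table lists under Dmrtb1. How the null allele was made is not given in the sources used here. Binding was read from 1 chromatin immunoprecipitation (ChIP) library made with a polyclonal DMRT6 antibody and 1 input library. Those came from the testis of adult wild-type mice of a background labelled "C57BL/6, Mixed", so that binding and expression come from different ages. The study asked which transcripts depend on DMRT6 as spermatogonia leave mitosis for meiosis, and where the protein binds.

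Most histone proteins are made in S phase from clustered genes, whereas the variants described here are made from single genes outside those clusters. Several of them are placed on chromatin by dedicated chaperones. H3.3 enters active genes through the HIRA complex and repeats through DAXX and ATRX. H2A.Z is exchanged into promoter nucleosomes by the SRCAP and EP400 complexes, and CENP-A is loaded at centromeres by HJURP and the MIS18 complex. In male germ cells H2AX is phosphorylated at meiotic double-strand breaks and over the sex chromosomes, and loss of H3.3 genes or of H2AX disturbs spermatogenesis.

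The libraries held 23.8 to 29.0 M reads in the table, so every member was counted deeply: the fewest reads for any member were 548, for H2afx in null replicate 2. Dmrtb1 was at a log2 CPM of 3.03, 4.12 and 3.21 in wild type and -0.88, -0.13 and 0.03 in null, with no overlap (limma adjusted p = 0.0516). CPM is the authors' read count scaled to library size. Markers of germ cells (summed level of 9 genes 1139 to 1384 CPM) and of Sertoli cells (8 genes, 709.6 to 1281 CPM) were present in all 6 libraries, whereas the late spermatid genes Prm1 and Tnp2, named after their values were seen, had 1 to 5 reads. Only 2 of the 8 summed marker lists did not overlap between genotypes. That of 16 mitotic cell cycle genes ran from 2495 to 2614 CPM in wild type and from 2075 to 2314 in null, and that of 5 red blood cell genes from 1477 to 1776 and from 717 to 1255. Macrophage and leukocyte genes reached 94.6 to 143 CPM in wild type and 84.8 to 115 in null, and 7 of 7 had a lower mean in null (median -0.23). By contrast 7 of 8 Sertoli genes (median 0.21) and 6 of 8 tested germ cell genes (median 0.20) had a higher one. The part of these marker levels in the members' differences was not tested.

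None of the 9 members passed the test between genotypes. limma called 1 of 16634 genes at an adjusted p under 0.05, or 0.00601%, and the members' adjusted p ran from 0.755 to 0.98. In 3 members, H2afz, H3f3b and Cenpa, each of the 3 null libraries lay below each of the 3 wild-type libraries, with levels 0.789, 0.817 and 0.832 times wild type. Over all tested genes 6.02% had every null library below wild type and 5.06% had every null library above it. No member lay wholly above, and the other 6 overlapped. The same 3 members had an unadjusted p under 0.05 in limma, where 1.85% of tested genes were lower in null at that p. Of the 9 differences 7 were negative and 2 positive, with a median of -0.09 log2 units beside 0.01 for all tested genes. Over the alternatives 6 to 8 were negative, and the median was -0.034 without wild-type replicate 1 and -0.14 with median centring. In whole testis, fewer cells of a type and less RNA per cell cannot be told apart. Levels are not compared between genes, because a transcript length for each gene was not used here.

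**Figure D1:**
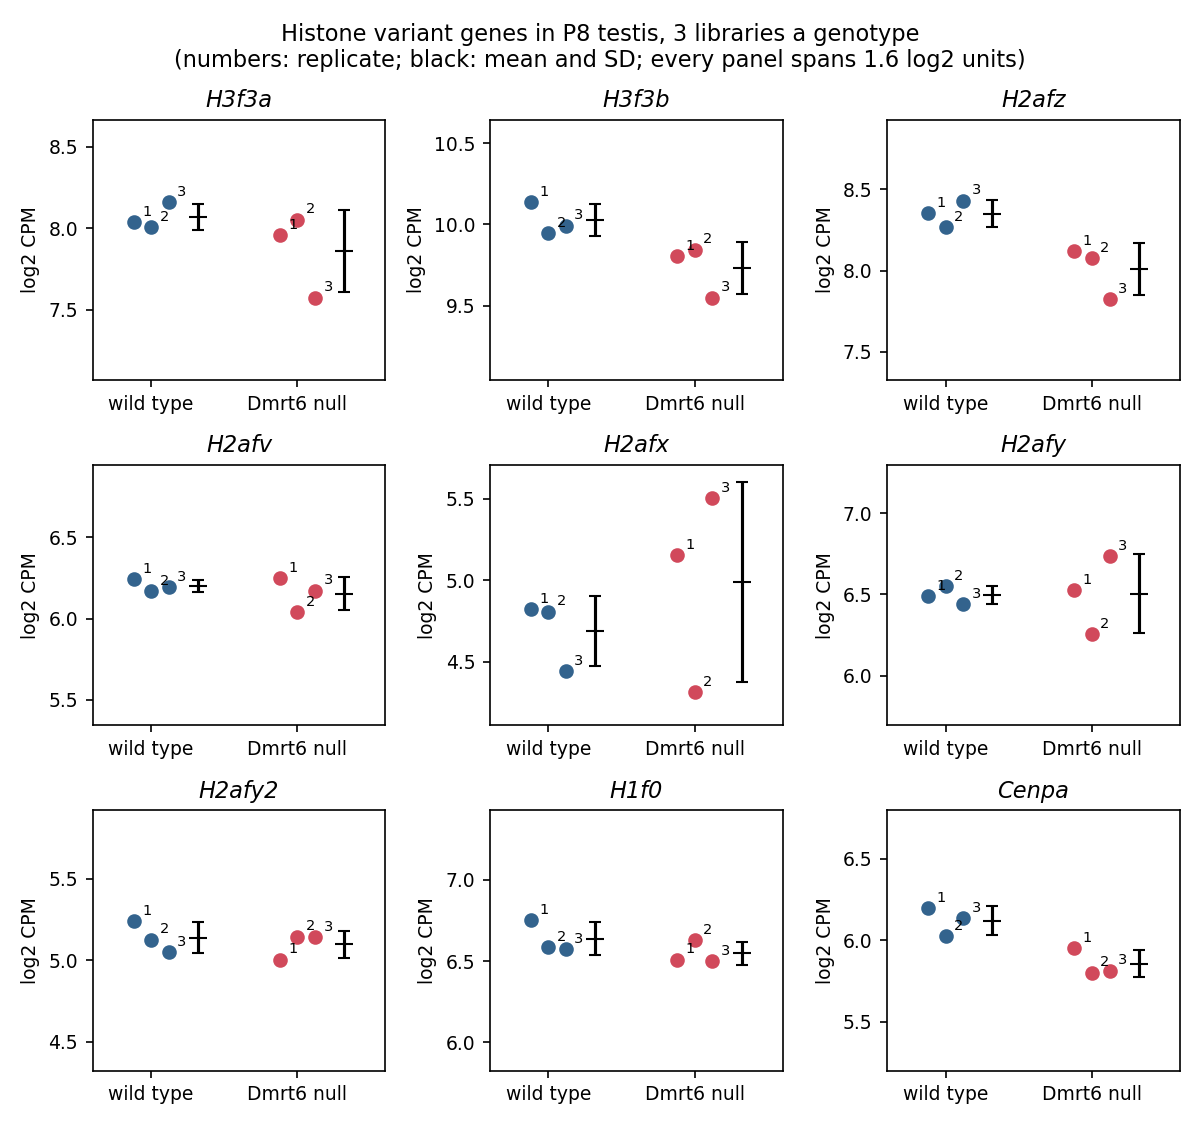
Level of each histone variant gene in log2 CPM (vertical axis; each panel has its own range of equal height) in the wild-type (blue) and Dmrt6 null (red) libraries, numbered by replicate, with the mean and SD in black (n = 3). In H3f3b, H2afz and Cenpa all red points lie below all blue points, and H2afx spreads most among the null libraries, from 4.31 to 5.50.

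**Figure D2:**
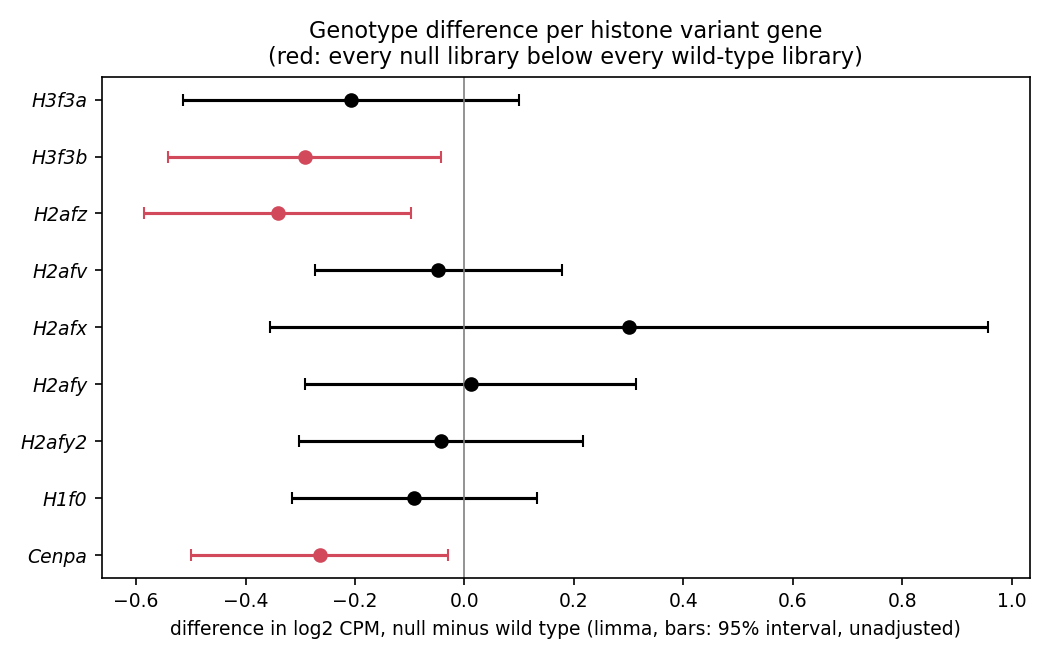
Difference in log2 CPM between genotypes (horizontal axis, null minus wild type) for each gene, with the 95% interval of the limma fit before any adjustment. The intervals of H3f3b, H2afz and Cenpa (red) end below 0 and those of the other 6 genes include 0.

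H3f3a and H3f3b are separate genes for the same protein, H3.3. H3f3b stood at a log2 CPM of 10.14, 9.95 and 9.99 in the wild-type libraries, in order of replicate number, and at 9.81, 9.85 and 9.55 in the null libraries. All 3 null values were thus below the lowest wild-type value, and null replicate 3 was the lowest of the 6. The reads were 26840, 28918 and 27971 against 23546, 25379 and 19318. The means were 10.03 ± 0.10 and 9.73 ± 0.16 (SD, n = 3), a difference of -0.29 (SE 0.11, 95% interval -0.54 to -0.04, limma adjusted p = 0.755). Without null replicate 3 it was -0.20.

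H3f3a was at a log2 CPM of 8.04, 8.01 and 8.16 in wild type and 7.96, 8.05 and 7.57 in null. Null replicate 2 lay among the wild-type values and null replicate 3 well below the others. The difference was -0.21 (SE 0.13, 95% interval -0.51 to 0.10), and it was -0.063 without null replicate 3 and -0.10 with array weights.

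The ratio of the 2 H3.3 genes overlapped between genotypes. H3f3b held 81.1%, 79.3% and 78.1% of the reads of both genes in wild type and 78.3%, 77.6% and 79.7% in null. The within-library difference in log2 CPM, H3f3b minus H3f3a, moved by -0.09 between genotypes (two-sided exact permutation p = 0.5, where 3 libraries against 3 cannot give less than 0.1). It ran from 1.79 to 2.10 over the 6 libraries, and leaving out 1 library gave -0.15 to -0.014 (the latter without wild-type replicate 1).

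The H3f3a value is uncertain, because its reads may be shared with copies elsewhere in the genome. A further 3 rows of the table bear its name or that of an H3f3 gene, H3f3c on chromosome 2 (119491362 to 119491772), H3f3a-ps2 on chromosome 16 (91114434 to 91114844) and H3f3a-ps1 on the X chromosome (99019854 to 99020263), and they were picked for display after their values were seen. Reads of H3f3c numbered 6059, 7412 and 7702 in the wild-type libraries against 6452, 7576 and 4900 in the null ones. Those are 96.8% to 103% of the H3f3a reads of the same library. H3f3a-ps2 had 77.8% to 82.0% and H3f3a-ps1 50.5% to 54.5% of them. All 3 rows tracked H3f3a from library to library and shared its low value in null replicate 3. How the authors counted reads that map to several places is not given in the sources used here.

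**Figure D3:**
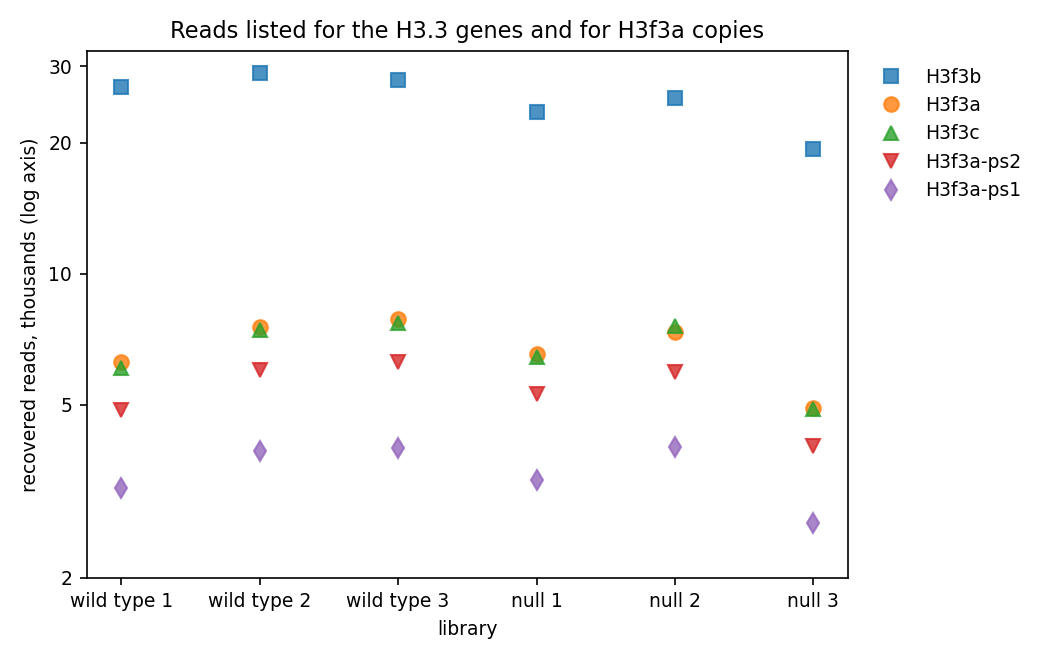
Recovered reads (vertical axis, log scale) of the H3.3 genes H3f3b and H3f3a and of the rows H3f3c, H3f3a-ps2 and H3f3a-ps1, in the 6 libraries (horizontal axis). H3f3c lies on H3f3a in every library, between 96.8% and 103% of its reads.

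The promoter of H3f3b is shown because the gene did not overlap between genotypes and because of its repeated CCAAT boxes, the element bound by the factor NF-Y. The letters are the 250 bases before the RefSeq start (chr11:116024505-116024754, GRCm38.p6, minus strand, printed 5′ to 3′ along the gene), with CCAAT on either strand (CCAAT or ATTGG) in capitals.
H3f3b: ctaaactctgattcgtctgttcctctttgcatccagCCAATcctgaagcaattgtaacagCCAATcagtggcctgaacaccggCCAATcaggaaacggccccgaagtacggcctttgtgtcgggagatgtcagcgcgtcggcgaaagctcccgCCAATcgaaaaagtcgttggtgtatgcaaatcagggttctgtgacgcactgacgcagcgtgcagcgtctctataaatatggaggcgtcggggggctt
It holds 4 CCAAT boxes, 97, 167, 190 and 214 bases before the start, and TATAAA (searched on both strands, as were all motifs) 27 bases before it. Of 32851 RefSeq promoters cut to the same window, 0.84% hold at least 4 CCAAT boxes and 33.8% at least 1, while 12.4% hold TATAAA. Because the promoter was picked for its CCAAT boxes, these shares are descriptions. H2afv, whose groups overlapped, also holds 4 CCAAT boxes. The H3f3a promoter holds 1 CCAAT box and no TATAAA. RefSeq promoters were matched for 8 of the 9 members, all except H2afx.

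H2afz and H2afv encode the H2A.Z.1 and H2A.Z.2 proteins. H2afz was at a log2 CPM of 8.35, 8.27 and 8.43 in the wild-type libraries and at 8.12, 8.08 and 7.83 in the null libraries. The groups did not overlap, and null replicate 3 was again the lowest. Reads were 7784, 9007 and 9462 against 7319, 7447 and 5841. The means were 8.35 ± 0.08 and 8.01 ± 0.16 (SD, n = 3), and the difference of -0.34 (SE 0.11, 95% interval -0.59 to -0.10, limma adjusted p = 0.755) was the largest decrease among the members. Over the 14 alternatives it ran from -0.40 to -0.22, the latter with array weights.

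In H2afv the groups overlapped. It stood at 6.24, 6.17 and 6.19 log2 CPM in wild type and at 6.25, 6.04 and 6.17 in null, with overlap at both ends. The difference was -0.05 (SE 0.10, 95% interval -0.27 to 0.18), and it was positive, at 0.049, with array weights and at 0.0079 without null replicate 2. H2afz held 81.2%, 81.1% and 82.5% of the reads of both genes in wild type and 78.6%, 80.4% and 75.9% in null, so each null share was below each wild-type share. H2afz minus H2afv within a library moved by -0.29 between genotypes, with an exact permutation p of 0.1, the smallest that 3 libraries against 3 can give. Without null replicate 3 it moved by -0.19.

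Both H2A.Z promoters are shown because only H2afz had groups that did not overlap while both hold CCAAT boxes. They are the RefSeq windows chr3:137864237-137864486 (plus strand) and chr11:6444444-6444693 (minus strand) of GRCm38.p6, printed 5′ to 3′ along the gene with CCAAT or ATTGG in capitals.
H2afz: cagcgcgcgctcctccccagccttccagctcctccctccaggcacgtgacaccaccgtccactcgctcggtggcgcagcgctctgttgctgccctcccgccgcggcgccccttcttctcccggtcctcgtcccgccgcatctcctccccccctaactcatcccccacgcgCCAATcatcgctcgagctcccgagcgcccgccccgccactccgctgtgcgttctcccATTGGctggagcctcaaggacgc
H2afv: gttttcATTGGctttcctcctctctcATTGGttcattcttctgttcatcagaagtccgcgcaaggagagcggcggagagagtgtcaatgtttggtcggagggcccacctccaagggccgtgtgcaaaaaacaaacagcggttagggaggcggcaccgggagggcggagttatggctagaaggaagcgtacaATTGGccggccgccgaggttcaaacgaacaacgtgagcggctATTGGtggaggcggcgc
H2afz holds 2 CCAAT boxes, 23 and 80 bases before the start, in a window of 71.2% GC, and 10.1% of all promoters hold 2 or more. H2afv holds 4, at 17, 59, 224 and 244 bases, in a window of 57.2% GC. H2afv also holds TTTGAA, the core of the cell cycle genes homology region, 41 bases before the start, which 16.0% of all promoters do and no other matched member does.

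Cenpa, whose product marks the centromere and is renewed with each cell cycle, was at a log2 CPM of 6.20, 6.03 and 6.14 in the wild-type libraries and 5.95, 5.80 and 5.81 in the null libraries. The highest null library stayed below the lowest wild-type library, and the spread within each genotype was narrow. Reads were 1749, 1905 and 1934 against 1627, 1539 and 1449. The means were 6.12 ± 0.09 and 5.86 ± 0.08 (SD, n = 3), a difference of -0.26 (SE 0.10, 95% interval -0.50 to -0.03, limma adjusted p = 0.755). Unlike H3f3b and H2afz, Cenpa was not lowest in null replicate 3, and the difference was -0.24 without it and -0.15 with array weights.

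The genes that load CENP-A and build the inner centromere lay to the same side. Of 14 such genes 13 were lower in null, and 10 of the 14 had every null library below every wild-type library, where 6.02% of tested genes did. These counts were added after the data were seen, and no set test was run on them. The median difference was -0.26 log2 units, and 0 of 14 passed limma. Among those of smallest p were Cenph (-0.35, SE 0.13) and Cenpk (-0.37, SE 0.16) of the inner kinetochore, and Mis18a (-0.29, SE 0.13), which the table lists as 2610039C10Rik and whose product helps to license loading. On the log2 CPM scale Cenph stood at 5.04, 4.90 and 4.76 in the wild-type libraries and at 4.54, 4.67 and 4.45 in the null libraries, so its groups did not overlap. Leaving out any 1 library left 12 to 14 of the 14 genes lower and 10 to 12 with every null library below wild type, as 8.12% to 18.4% of all tested genes then had. With quantile normalization that count was 8 of 14, beside 6.40% of tested genes. Array weights gave the list a median of -0.15, Mis18a -0.14 and Cenpk -0.24, and Cenpk was also at -0.24 without null replicate 3.

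Mitotic cell cycle genes, none of them in the centromere list, lay to that side too. Of 16 genes 14 were lower in null, 9 had every null library below wild type (6.02% of all tested genes), and the median was -0.24, or -0.14 with array weights. The counts of this list, too, were added after the data were seen, without a set test. The DNA replication gene Rrm2 (-0.49, SE 0.13) and the spindle motor gene Kif11 (-0.31, SE 0.09), picked after their values were seen, had the smallest p of this list, and 0 of 16 passed limma. Whether a different share of dividing cells accounts for the levels of Cenpa, H2afz or the centromere genes was not tested.

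The Cenpa promoter is shown because it shares CCAAT boxes with the other members whose groups did not overlap. It is chr5:30666636-30666885 of GRCm38.p6, plus strand, with CCAAT or ATTGG in capitals.
Cenpa: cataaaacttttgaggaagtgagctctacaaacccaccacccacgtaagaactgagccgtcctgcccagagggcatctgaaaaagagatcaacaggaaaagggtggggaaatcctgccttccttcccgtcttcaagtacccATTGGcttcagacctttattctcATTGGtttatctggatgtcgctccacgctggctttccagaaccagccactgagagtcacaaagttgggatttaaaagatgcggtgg
It holds 2 CCAAT boxes, 86 and 109 bases before the start, in a window of 48.8% GC, the lowest of the 8 matched members. CCAAT was found in H3f3b, H2afz and Cenpa, and also in H2afv and H3f3a, whose groups overlapped. It was not found in this window of H1f0, H2afy and H2afy2. Of all promoters 33.8% hold at least 1 CCAAT box and 10.1% hold 2 or more. ACANTGT, the inner letters of the palindromic element that DMRT proteins bind, was in none of the 8 windows and in 6.47% of all promoters.

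H2afx, the histone phosphorylated at double-strand breaks, varied more among libraries than any other member. It stood at 4.82, 4.81 and 4.44 log2 CPM in wild type and 5.15, 4.31 and 5.50 in null, so that null libraries were both the highest and the lowest of the 6. Reads were 673, 819 and 596 against 935, 548 and 1169. The means were 4.69 ± 0.22 and 4.99 ± 0.61 (SD, n = 3), a difference of 0.30 (SE 0.28, 95% interval -0.36 to 0.96, limma adjusted p = 0.757). The difference depended on single libraries, at 0.043 without null replicate 3 and 0.64 without null replicate 2. Leaving out wild-type replicate 3 gave 0.18. H1fx, a linker histone gene outside the 9 members, had the same order of null libraries (3.06, 2.32 and 3.59), and its wild-type libraries were at 2.98, 2.91 and 2.13. The H1fx difference was 0.32 (SE 0.36), or 0.019 without null replicate 3, 0.65 without null replicate 2 and 0.046 without wild-type replicate 3.

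Genes listed for H2AX phosphorylation, its readers and the linked checkpoint response showed no common direction. Of these 5 of 12 were lower and 7 higher, with a median of 0.05, and 0 of 12 passed limma. Those of smallest p were the ubiquitin ligase gene Rnf168 (0.17, SE 0.10), and the checkpoint and repair genes Chek2 (-0.19, SE 0.12), Brca1 (-0.12, SE 0.08) and Chek1 (-0.16, SE 0.12). Every null library was below wild type in 3 of the 12 (Chek2, Brca1 and Topbp1, beside 6.02% of all tested genes) and above it in 1 (Rnf168, beside 5.06%). Chek1 was at -0.091 without wild-type replicate 2 and Chek2 at -0.11 with array weights.

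H2afy and H2afy2 encode macroH2A1 and macroH2A2, which carry a large non-histone domain and mark silent chromatin. H2afy was at a log2 CPM of 6.49, 6.55 and 6.44 in wild type and at 6.53, 6.26 and 6.74 in null. The wild-type values lay inside the range of the null values, whose SD was 0.24 against 0.06. Its difference of 0.01 (SE 0.13, 95% interval -0.29 to 0.31) was negative under median centring (-0.04) and quantile normalization (-0.02). H2afy2 was at 5.24, 5.13 and 5.05 against 5.004, 5.14 and 5.14, a difference of -0.04 (SE 0.11, 95% interval -0.30 to 0.22). H2afy minus H2afy2 within a library moved by 0.05 (exact permutation p = 0.8).

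H1f0 encodes the linker histone H1.0, known from cells that have slowed or stopped dividing. It was at a log2 CPM of 6.75, 6.59 and 6.58 in wild type and 6.51, 6.63 and 6.50 in null. Null replicate 2 lay inside the wild-type range and the other null libraries just below it, with a difference of -0.09 (SE 0.10, 95% interval -0.32 to 0.13), or -0.034 without wild-type replicate 1 and -0.14 with median centring. The table gives H1f0 a span of 538 bp and RefSeq gives 2293 bp, so its reads may cover part of the transcript.

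Of the 8 H3.3 chaperone genes, 6 had a higher mean in null and 2 a lower one, and the median difference was 0.17. Those of smallest p were Hira (0.39, SE 0.19), its partners Ubn1 (0.35, SE 0.20) and Cabin1 (0.43, SE 0.28), and Daxx (0.28, SE 0.19). Cabin1 stood at a log2 CPM of 6.36, 6.30 and 6.16 in wild type and 6.39, 6.27 and 7.47 in null, so that null replicate 3 alone was above the rest. Without that library the differences of Hira, Ubn1, Cabin1 and Daxx were 0.19, 0.10, 0.06 and 0.08. Of 12 H2A.Z exchange genes 7 were lower and 5 higher, with a median of -0.06. The 4 of smallest p were Actr6 (-0.23, SE 0.12) lower and Ep400 (0.37, SE 0.22), Ruvbl2 (0.17, SE 0.10) and Srcap (0.42, SE 0.27) higher, and without null replicate 3 Ep400 and Srcap were at 0.08 and 0.09. Of 11 general histone chaperone genes 6 were lower and 5 higher with a median of -0.02, among them Npm1 (-0.20, SE 0.11), Nasp (-0.12, SE 0.09), Set (0.14, SE 0.11) and Npm3 (-0.13, SE 0.12). Without null replicate 3 Npm1 was at -0.093 and Set at 0.082, Set was at 0.25 without null replicate 2, and Npm3 was at -0.083 and -0.21 without wild-type replicates 2 and 1. In these 3 lists 0 genes passed limma.

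Of 14 genes listed as germ cell histone variants and sperm basic proteins 6 matched a row of the table and 2 were tested, H1fx and H2afj. Tnp1, Tnp2, Prm1 and H1foo matched but were below the filter, so no sperm basic protein gene was tested. H2afj differed by -0.05 (SE 0.15), and by 0.06 without null replicate 3. Tnp1, a transition protein gene of spermatids, had 10 to 20 reads in each library and the oocyte linker histone gene H1foo 4 to 10, both picked after their values were seen.

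**Figure D4:**
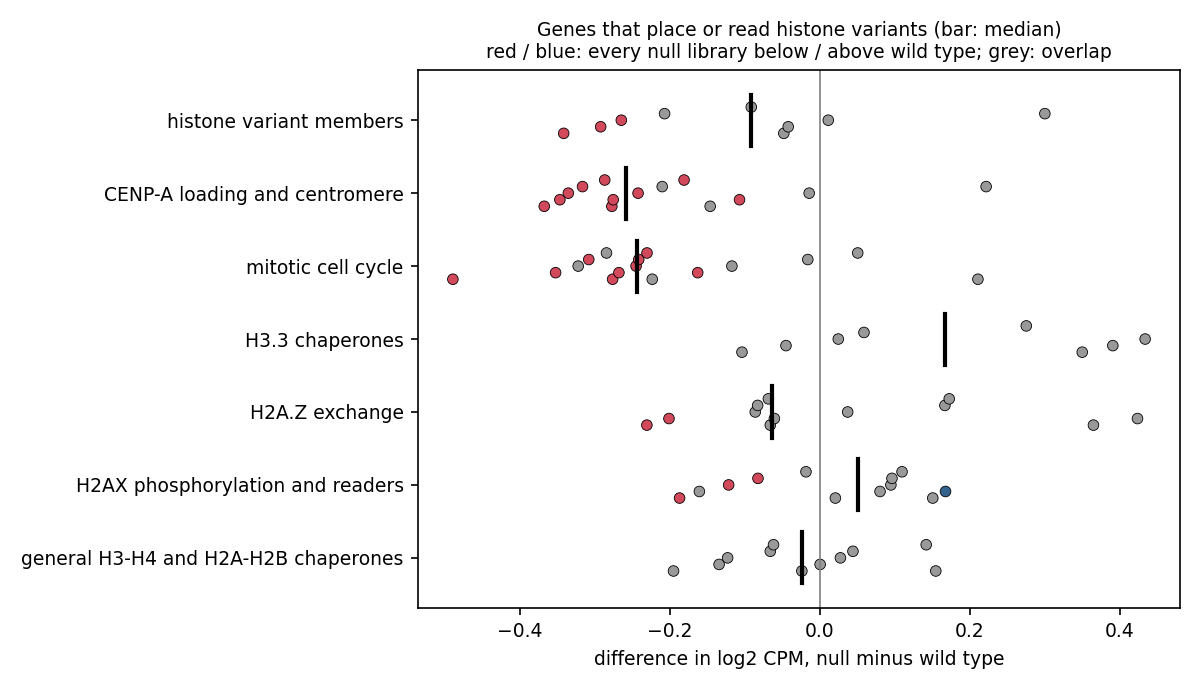
Difference in log2 CPM, null minus wild type (horizontal axis), of each tested gene in the list of 9 members and in 6 companion lists, with the median as a bar. Red points have every null library below wild type, a comparison added after the data were seen. They make up 10 of 14 centromere genes, 9 of 16 mitotic genes and 3 of the 9 members, beside 6.02% of all tested genes. Red points also make up 3 of 12 H2AX genes, 2 of 12 H2A.Z exchange genes and 0 genes of either chaperone list. The blue point is 1 H2AX gene with every null library above wild type, beside 5.06% of all tested genes.

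DMRT6 peaks of adult testis lay within 10 kb of the 5′ end of 8 of the 9 members, measured from the middle of the peak, where 31.2% of all tested genes had such a peak. Highly expressed genes carried peaks more often. Among tested genes with a mean log2 CPM no lower than that of the lowest member (4.84) the share was 37.3%. A peak middle lay within 1 kb for 4 members, H2afx, H1f0, H3f3a and H2afz, and for 16% of tested genes. With 1 ChIP and 1 input library no peak has a replicate check. The 8 members carried 11 peaks in the window, 7 upstream and 4 inside the gene. Their scores, which are the authors' own and have no stated scale, ran from 55.1 to 312 with a median of 105, against 94.7 for all 14862 peaks. With scores of at least 100 the count was 6 of 9, and 16.1% of tested genes.

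At H2afx a peak covered the 5′ end itself (chromosome 9, 44142694 to 44142931, mm9, score 73.2), with its middle 14 bp inside the gene (44142798 to 44144154, plus strand). The nearest other 5′ end, of Dpagt1, was 7884 bp away. H1f0 (chromosome 15, 78859152 to 78859689, plus strand) had the highest score in the window. Its upstream peaks lay at 78857526 to 78857816 (score 312, ranked 1137 of 14862) and 78858714 to 78859055 (score 169), 1481 and 267 bp from the 5′ end in the table. H2afz (chromosome 3, 137527451 to 137529886, plus strand) had a peak of score 105 at 137526554 to 137526694, 827 bp upstream.

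The peaks near the H3.3 genes were closer to other genes' starts. At H3f3b (chromosome 11, 115883226 to 115889276, minus strand) the peaks at 115891396 to 115891603 (score 110) and 115891751 to 115891948 (score 94.0) were 2223 and 2573 bp upstream, but 136 and 213 bp from the 5′ end of Unk. The table gives H3f3b a span of 6051 bp and RefSeq 4079 bp, so its start may be placed differently. At H3f3a (chromosome 1, 182730963 to 182744074, minus strand) a peak of low score (182743578 to 182743728, score 55.1) lay 421 bp inside the gene and 254 bp from the 5′ end of the predicted gene Gm16067.

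H2afv (chromosome 11, 6327229 to 6344446, minus strand) had a peak 3986 bp upstream (6348333 to 6348532, score 102), which was nearer, at 2211 bp, to the 5′ end of the predicted gene Gm11970. The macroH2A genes carried peaks inside and outside the gene body. H2afy2 (chromosome 10, 61201391 to 61246895, minus strand) had one 1108 bp inside (61245720 to 61245854, score 60.3) and one 4465 bp upstream (61251272 to 61251449, score 135). H2afy (chromosome 13, 56174980 to 56237722, minus strand) had one 4782 bp inside (56232838 to 56233041, score 137).

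The peaks of highest score around the members lay beyond the window. H2afy had a peak of score 979 at 56199259 to 56199656, 38264 bp inside the gene, which ranked 83 of 14862, and 45255 bp beyond the H2afz start was one of score 1065 (137572533 to 137572880), which ranked 62. Cenpa (chromosome 5, 30969150 to 30977200, plus strand) was the member without a peak in the window. Its nearest, at 31012745 to 31012879 (score 86.6), was 43662 bp downstream and 1125 bp from the 5′ end of Dpysl5. Of the 3 members whose genotypes did not overlap, H2afz and H3f3b thus had a peak within 10 kb and Cenpa did not.

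**Figure D5:**
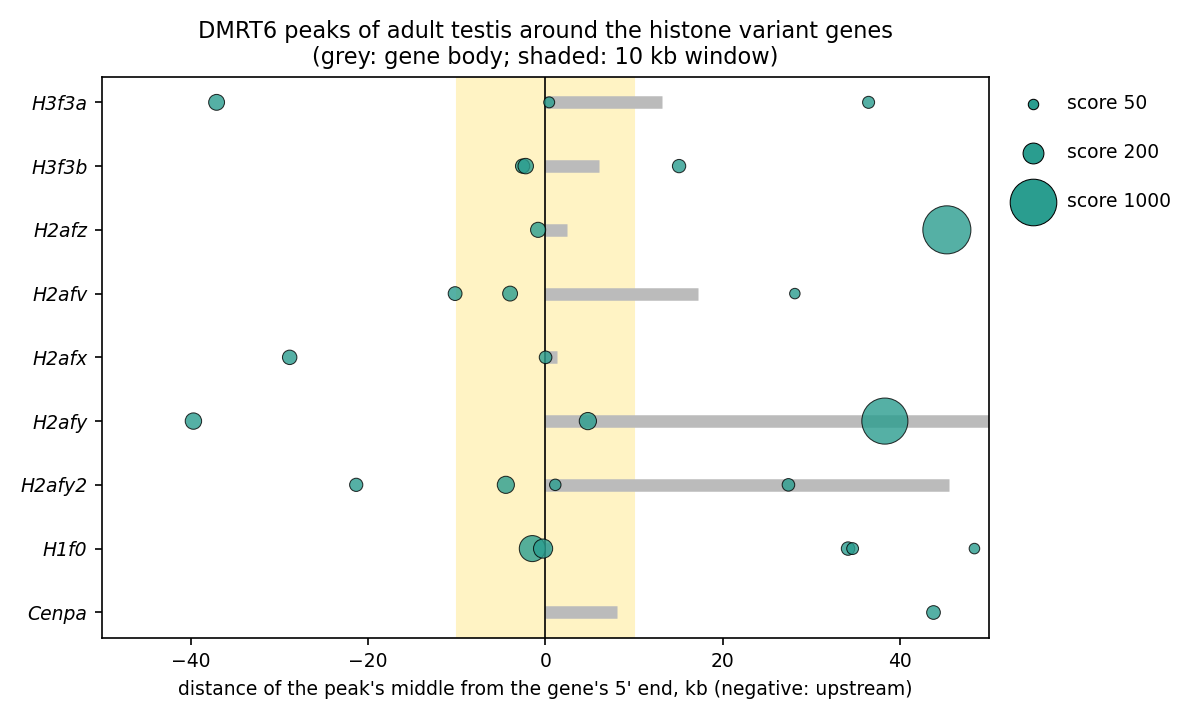
DMRT6 peaks (circles, area proportional to score) by distance of their middle from each gene's 5′ end in kb (horizontal axis, negative upstream), with the gene body in grey and the 10 kb window shaded. Every gene except Cenpa has a circle in the shaded window, and the largest circles, at H2afz and H2afy, lie outside it.

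Beside the 31.2% of all tested genes, 7 of 12 genes of the H2AX phosphorylation and response list had a peak within 10 kb. So did 5 of 14 centromere genes, 4 of 12 H2A.Z exchange genes, 4 of 11 general chaperones and 2 of 8 H3.3 chaperones. As shares those are 58.3%, 35.7%, 33.3%, 36.4% and 25.0%, so that all but the first were near the share of all tested genes or below it. The H2AX kinase genes Atm, Atr and Prkdc had peaks 523, 50 and 352 bp from their 5′ ends. Mdc1, Trp53bp1 and Topbp1 of the same list had peaks at 123, 37 and 12 bp. These 6 genes were picked for their role after the distances were seen.

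For each member the gene of most similar profile over the 6 libraries was sought among 11654 tested genes by Pearson's r. H2afz was most like Nusap1 (r = 0.999), H3f3a most like Gtf2b (0.998), H2afx like Actr1b (0.997), H1f0 like Lama4 (0.997), H3f3b like Ptgds (0.995), H2afy like Fstl3 (0.995), Cenpa like Ctnna3 (0.987), H2afv like Hpse (0.983) and H2afy2 like Id4 (0.980). Over so few libraries a search of that size gave an r above 0.95 for 11 (H2afy2) to 348 genes (H3f3a), so these are descriptions. Among the members themselves H2afz and H3f3b were most alike (r = 0.931), H2afx and H2afy next (0.912), and H2afx and H3f3a most opposed (-0.868), all over the same 6 libraries.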

How the data were processed

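The authors deposited 1 table of log2 CPM values for 6 RNA libraries and 1 list of peaks with a score per peak. How the scores were scaled is not given in the sources used here. Tools named per the submitters' processing notes, without roles, are edgeR, Picard, Bowtie2 and STAR 2.3.0e, with the build mm9. The name of the peak list gives MACS as its caller, and whether the input entered the calls is not stated there. From the steps of 2 to the power of each deposited log2 value, whole reads were recovered: 100% of values were whole at a tolerance of 1e-06, with a mean prior of 0.25 reads. Genes with a mean log2 CPM of at least 0 (16634) were tested with limma-trend (limma 3.58.1, R 4.3.3), genotype as the only term, with Benjamini-Hochberg adjustment over all of them. The script was tested on simulated data. SE and 95% intervals are those of the limma model. The 3 libraries of a genotype are biological replicates, per the series' design text.

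Named are the 9 members, Dmrtb1, up to 4 genes of smallest p in each companion list, the gene most like each member (mean log2 CPM of at least 2, with a symbol that is neither Gm with digits nor ends in Rik) and genes whose 5′ end is near a described peak. Genes outside that rule are said to be so where they appear, and 1 gene that it names is not reported here. The members and lists were chosen with earlier results of these data known. Positions are 1-based in mm9 from the table and the peak list, with a gene's outer coordinate as its 5′ end; promoters are RefSeq's, in GRCm38.p6, and were not placed against mm9 peaks. Mitotic, germ, Sertoli, Leydig, peritubular, endothelial, leukocyte and red blood cell lists were summed in CPM. Leydig genes summed to 449.6 to 728 CPM, peritubular and stromal genes to 2317 to 3415 and endothelial genes to 148 to 219.9, with overlap between genotypes. The alternatives were other scalings, filters, priors, array weights, voom, the replicate number as a block, leaving out each library, and other peak windows. Same-numbered libraries did not deviate together (correlations of -0.09, -0.22 and -0.04), so the numbers were not taken as pairs.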

Additional observations from a re-analysis of the deposited data

How the results depend on the processing

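No member passed the threshold in any of the 14 alternatives to the limma fit, and H3f3b, H3f3a, H2afz, H1f0 and Cenpa stayed negative and H2afx positive in all 14. The number of genes called among all tested, 1 in the fit reported, was 136 with array weights (whose estimation stopped before full convergence), 3 with median centring, 3 without a filter, 2 with quantile normalization, 2 with a prior of 2 reads, 2 with the replicate block and 0 when genes below a mean log2 CPM of 2 were left out (where 420 genes had an unadjusted p under 0.05); leaving out 1 library each gave 0 to 5. With array weights the limma adjusted p was 0.0688 for H2afz, 0.0748 for H3f3b and 0.0879 for H2afx, nearer the threshold than in the fit reported. For the other members it was 0.141 or more. Array weights lowered p over all genes, with 4716 of 16634 at an unadjusted limma p under 0.05, beside 578 in the fit reported. Under the replicate block no member's call changed, the limma adjusted p of H2afz being 0.91. There H2afz minus H2afv had an exact paired p of 0.25, the smallest that 3 pairs can give. The count of members with every null library below wild type, a comparison added after the data were seen, was 3 to 5 over the fits that left out 1 library, with 5 without null replicate 2, when 18.4% of all tested genes did so. Differences near 0 changed sign: H2afv was 0.049 with array weights and -0.095 to 0.0079 over left-out libraries, H2afy was -0.036 with median centring, -0.023 with quantile normalization and -0.10 to 0.14 over left-out libraries, H2afy2 was -0.086 to 0.0080, H2afj was 0.0075 with array weights and -0.13 to 0.059, and H2afy minus H2afy2 was -0.039 to 0.20; the cause was not tested. The number of members with a peak was 8 within 5 kb (24.3% of tested genes), 9 within 50 kb (64.2%), 6 at a score of at least 100 (16.1%) and 6 over the gene body or the 1 kb before it (33.1%). The planned edgeR and DESeq2 alternatives were not run. With 548 reads or more for each member and 3 libraries a genotype, the members' SE ran from 0.10 to 0.28 log2 units.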
